A study of Mus musculus with 12 samples.

Results

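The 10 genes described here encode chemokines, cytokines and inflammatory surface or response proteins: Ccl2, Ccl7, Cxcl1, Cxcl5, Cxcl12, Il33, Vcam1, Csf1, Csf1r and Tnfaip2. They were taken by name from a table of 24454 genes, and all 10 were among the 12502 genes tested. RNA was measured in 3 mouse breast cancer lines that the series describes as mesenchymal: PyMT-1099 LT and Py2T LT, from mammary tumours of the MMTV-PyMT strain, and MT∆Ecad, from mammary tumours of the MMTV-Neu strain. Cells of each line were transfected for 48 hours with a Dharmacon siRNA that targets Nrf2 (siNrf2) or with a non-targeting Dharmacon siRNA (siCtl), so every library comes from transfected cells in medium with serum. Each line and siRNA has 2 libraries, 12 in all, which the series calls biological duplicates, and each line is a single line. The name MT∆Ecad marks a deletion of Cdh1, the gene of E-cadherin, which its siCtl and siNrf2 cells share. In each comparison of MT∆Ecad with another line, the deletion and the other differences of the line cannot be told apart. Levels are CPM, reads of a gene scaled to a library total of 1000000, and a fold change is a difference of log2(CPM + 1), which understates the change of low genes.

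Chemokines are secreted proteins that direct the movement of leukocytes through receptors on the cell surface. Ccl2 and Ccl7 act on monocytes through Ccr2, Cxcl1 and Cxcl5 on neutrophils through Cxcr2, and Cxcl12 through Cxcr4 and the scavenging receptor Ackr3. Csf1 keeps macrophages alive through Csf1r, Il33 is a nuclear cytokine released by damaged cells that acts through Il1rl1, and Vcam1 binds leukocyte integrins. NF-kB drives many of these genes, and Nrf2, the regulator of antioxidant genes encoded by Nfe2l2, is known to restrain some inflammatory genes in macrophages.

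The neighbourhoods of these genes differ. Ccl2 (GRCm38, GENCODE release M21, chromosome 11, 82035577 to 82037452) and Ccl7 (82045712 to 82047525) lie on the same strand, 8.3 kb apart. Cxcl5 (chromosome 5, 90759298 to 90761625) and Cxcl1 (90891245 to 90893121) lie 129.6 kb apart, and the members of either pair are near relatives whose reads could have been shared with each other or with other members of their families. Cxcl12 lies on chromosome 6 (117168535 to 117181368), Il33 on chromosome 19 (29925113 to 29960718) and Tnfaip2 on chromosome 12 (111442450 to 111455018). Vcam1 (116110020 to 116129688) and Csf1 (107741048 to 107760469) both lie on chromosome 3. The RefSeq promoter table for GRCm38.p6 gives the 250 bases before the start of Csf1, Cxcl1 and Cxcl12, and before 2 starts of Il33. For Tnfaip2 it gives those before a start inside the gene as placed above. That window, from 111442411 to 111442660, runs past the gene start at 111442450. Ccl2, Ccl7, Cxcl5 and Vcam1 had no entry.

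The promoters of Cxcl1 and Csf1 are shown because they hold matches to the kappaB consensus, the sequence that NF-kB binds. Each is given 5′ to 3′ on the strand of its gene, with the matched bases in capitals. The Cxcl1 promoter is chr5:90890995-90891244 on the plus strand and the Csf1 promoter chr3:107760470-107760719 on the minus strand.
Cxcl1: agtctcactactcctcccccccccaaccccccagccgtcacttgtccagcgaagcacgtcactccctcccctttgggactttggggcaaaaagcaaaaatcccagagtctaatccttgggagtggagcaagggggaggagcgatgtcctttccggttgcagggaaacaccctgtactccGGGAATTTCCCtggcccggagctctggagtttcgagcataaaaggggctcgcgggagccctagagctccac
Csf1: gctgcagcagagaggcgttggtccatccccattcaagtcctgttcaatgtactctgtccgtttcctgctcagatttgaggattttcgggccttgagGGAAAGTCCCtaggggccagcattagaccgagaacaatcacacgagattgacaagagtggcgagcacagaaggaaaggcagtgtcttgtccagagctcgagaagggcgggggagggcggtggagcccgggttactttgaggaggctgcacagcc

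The search covered both strands, in windows that hold the bases before the start and a stretch after it. The shares below are for the same windows. Cxcl1 held 2 overlapping kappaB matches, from −71 to −62 and from −70 to −61 relative to the start, Csf1 1 from −154 to −145, and Tnfaip2 1 from −24 to −15. Tnfaip2 also held TGACNNNGC, the core of the antioxidant response element that Nrf2 binds, from −161 to −153. Both Tnfaip2 positions count from its inner start, so these matches lie inside the gene as placed above. The kappaB consensus was found in 8.46% of all 32851 promoters in the table and TGACNNNGC in 12.4%, so these letters are common. In the promoters of tested genes these shares were 10.5% and 14.2%. No kappaB match lay in the windows of Cxcl12 and Il33, which says only that these letters are not there.

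Another sequence was shared by 3 of the 10 genes. ACCATTT and GAGAAGT are heptamers that earlier readings of these data had singled out in 3′ UTRs of genes that fell, so their link with lower values here is no independent finding. Each of the 3 genes holds ACCATTT once, at chr6:117181333-117181339 in Cxcl12, chr19:29960688-29960694 in Il33 and chr12:111453920-111453926 in Tnfaip2, all on the plus strand. Each is shown with 10 bases on either side and the heptamer in capitals.
Cxcl12: atcttcacctACCATTTtcctaataaa
Il33: ctttgaataaACCATTTttcaaaacca
Tnfaip2: cctcatttatACCATTTccttcagccc

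None of the 10 genes holds GAGAAGT, and the other 7 hold neither heptamer. In the average over the lines, described further on, Cxcl12 and Tnfaip2 fell and Il33 rose, so the 3 holders did not share a direction. Among the 11812 tested genes with a 3′ UTR sequence, the 2685 with either heptamer had a median average effect of −0.05, against 0.01 in the 9127 with neither. The holders also have longer 3′ UTRs, with a median of 2491 bases against 930, and the part of length in this difference was not tested.

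The libraries hold 27088970 to 37070635 reads, so a gene with 0 reads lies below 0.111 CPM in any library, counting error only. Nfe2l2, the targeted gene, fell in all lines (limma, adjusted p up to 0.000897), and in the numbered pairs the siNrf2 library held 22.8% to 29.4% of the siCtl value. Of 10 mesenchymal markers 9 or 10 reached 1 CPM in each group, and Vim lay at 1489 CPM or more in each library. Cdh1, the epithelial cadherin that the name MT∆Ecad gives as deleted, lay at 0.315 to 0.639 CPM in MT∆Ecad, against 12.5 to 18.1 in Py2T LT and 47.8 to 62.1 in PyMT-1099 LT. Epcam, another epithelial marker, was at 0 in PyMT-1099 LT and at 16.7 to 30.8 CPM in Py2T LT. Other epithelial markers were abundant. With either siRNA, 3 of 10 reached 1 CPM in MT∆Ecad, 8 in Py2T LT and 4 in PyMT-1099 LT. The highest were keratin genes, each at its peak with siNrf2. Krt8 reached 947 CPM in MT∆Ecad and 1801 in Py2T LT, and Krt18 reached 3193 in PyMT-1099 LT. Of 20 leukocyte markers, 2 reached 1 CPM in MT∆Ecad and 5 in PyMT-1099 LT with either siRNA. Py2T LT had 4 with siCtl and 5 with siNrf2. The panleukocyte gene Ptprc and the macrophage gene Adgre1 never exceeded 0.0571 CPM, and Cd14, the highest of the 20, reached 63.7. The endothelial cadherin Cdh5 lay at 88.0 to 124 CPM in PyMT-1099 LT, where the other 7 endothelial markers stayed near 0. As these are bulk libraries, fewer cells that express a gene and less RNA per cell cannot be told apart.

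The lines differed in which of the 10 genes they used most. Ccl2 led PyMT-1099 LT, Tnfaip2 led Py2T LT, and Csf1 led MT∆Ecad, judged by the siCtl mean CPM per kilobase of the longest coding transcript. In PyMT-1099 LT this level was 241 ± 12.5 for Ccl2 and 55.2 ± 0.108 for Csf1, followed by Ccl7 at 12.5 ± 0.130. In Py2T LT it was 90.3 ± 1.54 for Tnfaip2, 31.3 ± 3.93 for Csf1 and 22.9 ± 0.824 for Cxcl12. In MT∆Ecad it was 273 ± 51.8 for Csf1, 150 ± 2.23 for Tnfaip2, 93.7 ± 2.96 for Cxcl12, 91.6 ± 2.05 for Cxcl5 and 84.0 ± 30.8 for Ccl2 (SD, n = 2 throughout). The last 3 of these lay within the spread of Ccl2 and have no clear order. Likewise Cxcl1 and Il33 in PyMT-1099 LT, at 10.8 ± 1.43 and 10.5 ± 0.556 per kilobase, did not differ beyond their spread.

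**Figure D1:**
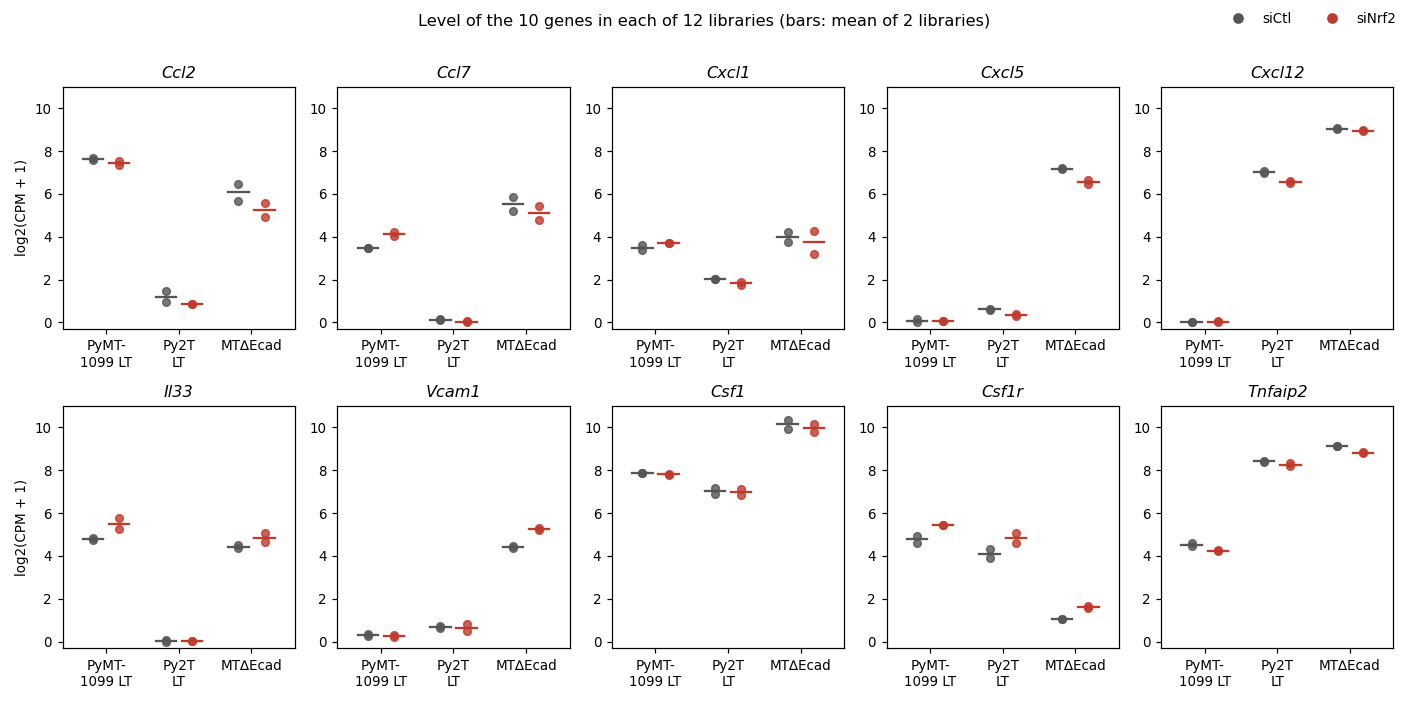
Level of each gene as log2(CPM + 1) in the 12 libraries, by line on the x axis, with siCtl in grey, siNrf2 in red and a bar at the mean of 2 libraries. Cxcl12 runs from 0 CPM in PyMT-1099 LT siCtl libraries to 539 in MT∆Ecad, where its siCtl and siNrf2 libraries all lie between 487 and 539.

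Compared in the siCtl libraries with limma, MT∆Ecad against PyMT-1099 LT gave 8 called genes of 10, at an adjusted p under 0.05. Called genes made up 57.6% of all tested genes in this contrast, so differences between lines were the rule. MT∆Ecad was higher for Ccl7, Cxcl5, Cxcl12, Vcam1, Csf1 and Tnfaip2, beside 27.0% of all genes, and lower for Ccl2 and Csf1r, beside 30.6%. Cxcl1 (difference 0.47 ± 0.29 SE, adjusted p = 0.194, limma) and Il33 (−0.35 ± 0.18, adjusted p = 0.123) missed the threshold. Against Py2T LT, all 10 were called, where 54.4% of all genes were, with MT∆Ecad higher for 9 (25.9% of all genes) and lower for Csf1r (28.6%). Py2T LT against PyMT-1099 LT also gave 10 of 10, beside 55.6% of all genes, with 4 higher in Py2T LT (Cxcl5, Cxcl12, Vcam1 and Tnfaip2, beside 28.1%) and 6 lower (beside 27.5%). Cxcl5 and Vcam1 passed the filter, 1 CPM in at least 2 libraries, through MT∆Ecad alone, so their calls against it were built in and support nothing. Between the other lines both genes lie under 1 CPM, with 35 and 40 siCtl reads in Py2T LT and 3 and 16 in PyMT-1099 LT. The Vcam1 call there was lost without either siCtl library of PyMT-1099 LT or without siCtl replicate 1 of Py2T LT (limma, adjusted p up to 0.126).

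The largest contrasts in level concerned genes that 1 line hardly transcribed. Cxcl12 had 0 reads in either siCtl library of PyMT-1099 LT, against 132 and 125 CPM in Py2T LT and 539 and 515 CPM in MT∆Ecad. Set against 3 reads per library, it was at least 1195-fold higher in Py2T LT and at least 4899-fold higher in MT∆Ecad. Cxcl5 had 3 reads in the PyMT-1099 LT siCtl libraries together and 35 in those of Py2T LT, but 8369 in those of MT∆Ecad. Its mean CPM in MT∆Ecad was 274 times that in Py2T LT (95% counting interval 198 to 395). Il33 had 2 reads in the Py2T LT siCtl libraries together, against 1683 in PyMT-1099 LT and 1203 in MT∆Ecad. These lines hold Il33 at 26.7 ± 1.42 and 20.7 ± 1.34 CPM (SD, n = 2).

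Ccl2 and Ccl7, neighbours on chromosome 11, did not keep a fixed ratio across lines. In siCtl libraries Ccl2 stood at 196 ± 10.2 CPM in PyMT-1099 LT and 68.3 ± 25.0 in MT∆Ecad, whereas Ccl7 stood at 10.0 ± 0.104 and 45.9 ± 14.6. Ccl2 was therefore 2.87 times higher in PyMT-1099 LT (counting interval 2.74 to 2.94) and Ccl7 4.57 times higher in MT∆Ecad (4.25 to 5.07). These intervals hold counting error only and leave out the wider spread between libraries. The MT∆Ecad siCtl libraries read 86.0 and 50.6 CPM for Ccl2 and 56.2 and 35.5 for Ccl7. In Py2T LT both were low, with 92 and 6 siCtl reads. Csf1r was lowest in the line with most Csf1, at 1.09 ± 0.0271 CPM in MT∆Ecad, against 16.5 ± 3.62 in Py2T LT and 26.6 ± 4.24 in PyMT-1099 LT.

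Among the monocyte chemokines, Ccl2 was lower in each siNrf2 library than in the siCtl library of the same number, in all 3 lines. In MT∆Ecad its siCtl libraries stood at 86.0 and 50.6 CPM and its siNrf2 libraries at 46.8 and 29.1. Both siNrf2 libraries lay below both siCtl libraries there, and within each number the siNrf2 value was 54.5% and 57.6% of the siCtl value. The fold change of −0.82 ± 0.28 (SE) missed the threshold in limma (adjusted p = 0.0763) and passed it with the replicate number as a block (limma, adjusted p = 0.00127). DESeq2 on whole reads recovered from the CPM also called it (adjusted p = 0.0325), as did limma without siCtl replicate 2 or siNrf2 replicate 1 of this line (adjusted p = 0.0359 and 0.0489). The other 10 fits that left out a library did not call it, and over all 12 the change ran from −1.20 to −0.44 with adjusted p up to 0.465 (limma). In PyMT-1099 LT Ccl2 read 189 and 203 CPM with siCtl and 164 and 185 with siNrf2, a change of −0.17 ± 0.28 (limma, adjusted p = 0.935). In Py2T LT it read 0.945 and 1.73 with siCtl and 0.807 and 0.837 with siNrf2, where few reads set the values.

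In PyMT-1099 LT Ccl7 was higher with siNrf2 and its neighbour Ccl2 lower, but no test compared the genes. Ccl7 read 10.1 and 9.97 CPM there with siCtl and 15.6 and 17.8 with siNrf2. These groups do not overlap, and the change was 0.68 ± 0.23 (limma, adjusted p = 0.339). The blocked fit called this rise (limma, adjusted p = 0.00916). In MT∆Ecad Ccl7 read 56.2 and 35.5 CPM with siCtl and 41.7 and 26.6 with siNrf2. The groups overlapped, yet each siNrf2 library held nearly the same share of its numbered siCtl library, 74.1% and 74.7%. That change of −0.42 ± 0.23 was not called in the fit without the block (limma, adjusted p = 0.27) and was called with it (adjusted p = 0.00625). The effect in MT∆Ecad minus that in PyMT-1099 LT was −1.09 ± 0.33 for Ccl7 (limma, adjusted p = 0.164, in a contrast that called 1.81% of all genes; with the block, adjusted p = 0.00321). Py2T LT held 6 reads of Ccl7 with siCtl and 1 with siNrf2, too few for a fold.

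Cxcl5, a neutrophil chemokine, fell in MT∆Ecad, the line that makes it. Its siCtl libraries read 147 and 142 CPM and its siNrf2 libraries 100.1 and 86.2. The groups lie apart by more than the spread within either, with a change of −0.63 ± 0.11 (SE; limma, adjusted p = 0.00528). Cxcl5 missed the threshold there in edgeR on the recovered reads (adjusted p = 0.0527) and with a pseudocount of 0.1 (limma, adjusted p = 0.189). The limma SE is shared with the other lines, where Cxcl5 lies under 1 CPM. Py2T LT carried little Cxcl5, at 0.540 and 0.513 CPM with siCtl and 0.323 and 0.223 with siNrf2, and a change of −0.26 ± 0.11 (limma, adjusted p = 0.843). Cxcl1, which shares the receptor Cxcr2, was not called in any line. Its MT∆Ecad libraries read 17.4 and 12.3 CPM with siCtl and 18.1 and 8.25 with siNrf2, so the siNrf2 values straddle the siCtl values. The change of −0.24 has a 95% interval from −0.89 to 0.42, which leaves sizeable changes in either direction possible.

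Cxcl12 was lower with siNrf2 in Py2T LT, from 132 and 125 CPM to 89.8 and 95.2. The 4 libraries do not overlap. The change of −0.47 ± 0.08 (SE) missed the threshold in limma (adjusted p = 0.112), in a contrast that called 0.152% of all genes. It passed with the block (limma, adjusted p = 0.0305) and in DESeq2 (adjusted p = 0.0414). In MT∆Ecad, where Cxcl12 was most abundant, it read 539 and 515 CPM with siCtl and 487 and 504 with siNrf2, a change of −0.09 ± 0.08 (limma, adjusted p = 0.532). These groups do not overlap either, but the gap is of the size of the spread within them. PyMT-1099 LT had 1 Cxcl12 read in 4 libraries, and these enter the SE given for the other lines.

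Il33 was higher with siNrf2 in both lines that express it. In PyMT-1099 LT it went from 25.7 and 27.7 CPM to 37.7 and 52.8, and in MT∆Ecad from 21.6 and 19.7 to 23.8 and 32.5. No siNrf2 library overlapped the siCtl range of its line, but the siNrf2 replicates spread widely, with SDs of 10.7 and 6.13 CPM. The changes of 0.72 ± 0.18 and 0.41 ± 0.18 (SE) missed the threshold (limma, adjusted p = 0.162 and 0.149). With the block, the first passed (limma, adjusted p = 0.032) and the second did not (adjusted p = 0.0571). The average over these 2 lines, an alternative chosen after the data were seen, was 0.57 ± 0.13 (limma, adjusted p = 0.0182).

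Csf1, the macrophage growth factor, ranked first or second of the 10 per kilobase in the siCtl libraries of every line. It read 230.2 and 231 CPM with siCtl and 229 and 218 with siNrf2 in PyMT-1099 LT, and 142 and 119 against 141 and 115 in Py2T LT. In MT∆Ecad it read 1292 and 987 CPM against 1137 and 889. The groups overlap in Py2T LT and MT∆Ecad, and the changes ran from −0.17 to −0.03 (limma, adjusted p from 0.577 to 1). With the block, the MT∆Ecad change of −0.17 was called (limma, adjusted p = 0.0181), with siNrf2 at 88.0% and 90.1% of siCtl in the numbered pairs.

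Its receptor Csf1r was higher with siNrf2 in all 3 lines. PyMT-1099 LT read 29.6 and 23.6 CPM with siCtl and 42.2 and 42.7 with siNrf2, and Py2T LT 13.9 and 19.0 against 23.3 and 33.0. MT∆Ecad read 1.07 and 1.11 against 1.92 and 2.12, from 30 to 73 reads per library. In each line both siNrf2 libraries lay above both siCtl libraries, and the 6 numbered pairs gave 143% to 192% of siCtl. How many of all genes separate in this way was not counted. The changes were 0.67 ± 0.19, 0.73 ± 0.19 and 0.53 ± 0.19 (SE), none of them called in a single line (limma, adjusted p = 0.244, 0.379 and 0.0893). All were called with the block (limma, adjusted p = 0.0137, 0.0264 and 0.00439), and that in MT∆Ecad also with a pseudocount of 0.1 (limma, adjusted p = 0.0274), in edgeR (0.0426) and in DESeq2 (0.0236). Averaged over the lines, Csf1r rose by 0.64 ± 0.11 (limma, adjusted p = 0.00923), and it was called under each of the 18 alternatives run. The effects did not differ detectably between lines (F test in limma, adjusted p = 0.997), with an interval for MT∆Ecad minus PyMT-1099 LT from −0.74 to 0.48.

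Csf1r (GRCm38 chromosome 18, 61105572 to 61131139) overlaps Hmgxb3 on the opposite strand, and whether the counting used the strand is not given in the sources used here. Hmgxb3 read 84.0 and 83.7 CPM with siCtl and 88.9 and 79.6 with siNrf2 in PyMT-1099 LT, so these groups overlap. In Py2T LT it read 123 and 120.5 against 124 and 112, which overlap too, and in MT∆Ecad 111 and 105 against 97.3 and 85.6, which do not. Ptprc and Adgre1, which mark macrophages that carry Csf1r, were at 0 in all 6 siNrf2 libraries. Other leukocyte markers were present, and with siNrf2 2 of the 20 reached 1 CPM in MT∆Ecad and 5 in either other line. Cd14 read 35.3 and 36.5 CPM with siCtl against 44.7 and 46.2 with siNrf2 in PyMT-1099 LT, and the summed leukocyte markers ran from 54.7 to 71.2 against 64.6 to 77.1 CPM. In MT∆Ecad these sums ran from 12.1 to 15.1 against 14.9 to 15.7 CPM and in Py2T LT from 52.4 to 60.4 against 55.4 to 70.5. The part of Hmgxb3 and of these markers in the Csf1r result was not tested.

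Vcam1, the adhesion molecule, rose in MT∆Ecad and was near 0 elsewhere. Its MT∆Ecad libraries read 21.0 and 19.9 CPM with siCtl and 38.1 and 36.2 with siNrf2, 181% and 182% of siCtl in the numbered pairs. The replicates agree closely and the groups are far apart, with a change of 0.83 ± 0.11 (SE; limma, adjusted p = 0.00211), called under each of the 18 alternatives. In PyMT-1099 LT it read 0.215 and 0.286 CPM with siCtl and 0.171 and 0.225 with siNrf2, and in Py2T LT 0.675 and 0.540 against 0.743 and 0.419. These are 5 to 23 reads per library, and the groups overlap in both lines. The limma SE given for MT∆Ecad is shared with these low lines.

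Whether the Vcam1 effect differs between lines cannot be read from these data. The other lines lie under 1 CPM, Vcam1 was tested through MT∆Ecad alone, and the scale of log2(CPM + 1) presses such low values towards no change. An F test of the difference gave an adjusted p of 0.0346 (limma), in a contrast that called 2.18% of all genes. It was not called with a pseudocount of 0.1 (limma, adjusted p = 0.255), with no filter (0.0532), in edgeR (adjusted p = 0.349), in DESeq2 (adjusted p = 0.328) or in 10 of 12 fits that left out a library (limma, adjusted p up to 0.128).

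Tnfaip2, an NF-kB response gene induced by TNF, fell slightly in MT∆Ecad. Its libraries there read 569 and 557 CPM with siCtl and 460.1 and 443 with siNrf2, without overlap and with little spread. The change of −0.32 ± 0.08 (SE; limma, adjusted p = 0.0296) was not called with TMM scaling (limma, adjusted p = 0.0781), edgeR (adjusted p = 0.0876) or DESeq2 (adjusted p = 0.0714). Leaving out any 1 of the 4 MT∆Ecad libraries, or either siCtl library of Py2T LT, also ended the call, with adjusted p from 0.0501 to 0.181 (limma). PyMT-1099 LT read 20.8 and 23.2 against 18.0 and 18.1, a change of −0.27 ± 0.08 that was called only with the block (limma, adjusted p = 0.279 without and 0.0343 with it). Py2T LT read 344 and 336 against 325 and 289 (change −0.15 ± 0.08, limma, adjusted p = 1). The siNrf2 libraries were below the siCtl libraries in all 3 lines, but the share of all genes that separate so was not counted.

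**Figure D2:**
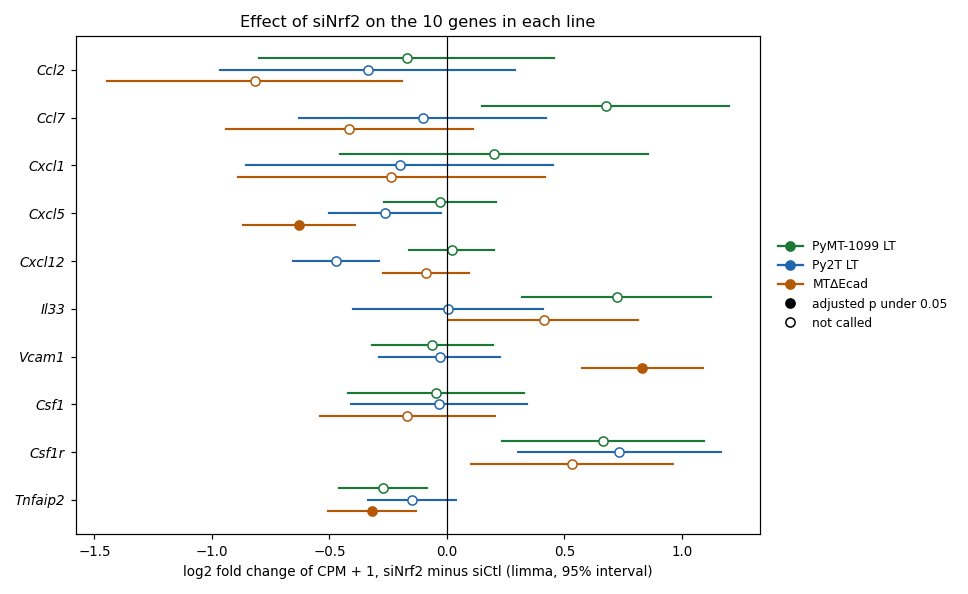
Change of each gene with siNrf2 as a log2 fold change of CPM + 1 (points) with 95% limma intervals (lines), coloured by line and filled where the adjusted p was under 0.05. The 3 filled points are those of Cxcl5, Vcam1 and Tnfaip2 in MT∆Ecad, and the 3 Csf1r intervals all lie above 0.

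Counted by line, MT∆Ecad had 3 of the 10 genes called in limma, beside 17.3% of all tested genes: Vcam1 was higher, beside 8.89%, and Cxcl5 and Tnfaip2 were lower, beside 8.42%. The other lines had 0 called. In PyMT-1099 LT, where 0.52% of all genes were called, 4 of the 10 had an unadjusted p under 0.05, beside 10.2% of all genes (limma). There edgeR and DESeq2 called 0 of the 10, beside 0.104% and 0.696% of all genes. In Py2T LT, where limma called 0.152%, 3 had an unadjusted p under 0.05, beside 5.39% of all genes (limma). There edgeR called 0, beside 0.048% of all genes, and DESeq2 called Cxcl12, beside 0.264%. With the block, MT∆Ecad had 7 genes called, beside 42.6% of all genes, PyMT-1099 LT had 4, beside 9.0%, and Py2T LT had 2, beside 1.02%. The median change of the 10 was −0.20 in MT∆Ecad, where the median of all tested genes was 0.00, and −0.12 against −0.02 in Py2T LT. In PyMT-1099 LT both medians lay within 0.01 of 0. The blocked fit called 5 differences between lines (Ccl2, Ccl7, Cxcl5, Cxcl12 and Vcam1), beside 19.0% of all genes. For Ccl7, Cxcl5, Cxcl12 and Vcam1 at least 1 line lies under 1 CPM. Ccl2 is low too in Py2T LT, at a mean of 1.34 CPM with siCtl and 0.822 with siNrf2.

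**Figure D3:**
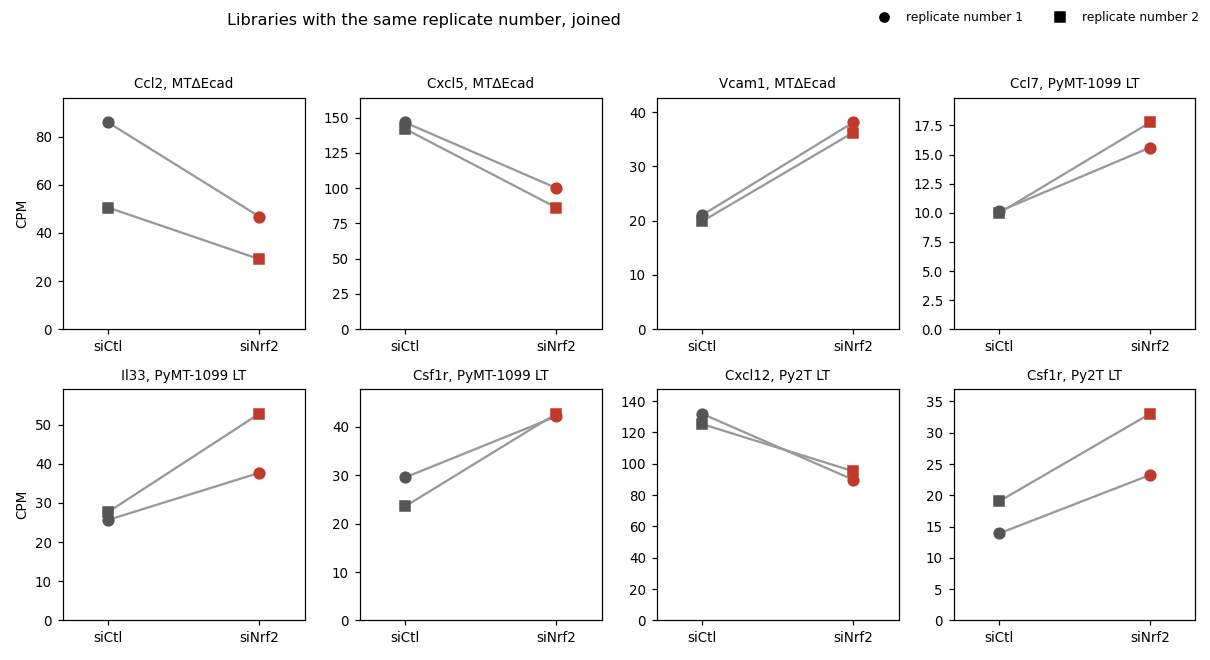
CPM of 8 gene and line combinations with siCtl (grey) and siNrf2 (red), with lines joining libraries of the same replicate number (circles 1, squares 2) and each y axis starting at 0. Ccl2 in MT∆Ecad shows how a wide spread between numbers (86.0 and 50.6 CPM with siCtl) can go with a similar share kept within each number, 54.5% and 57.6%.

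In the average over the 3 lines, 6 of the 10 genes were called in limma, beside 12.3% of all tested genes. Csf1r, Il33 (0.38 ± 0.10 SE, adjusted p = 0.0443) and Vcam1 (0.25 ± 0.07, adjusted p = 0.0415) rose. Cxcl5 (−0.31 ± 0.06, limma, adjusted p = 0.0152), Tnfaip2 (−0.25 ± 0.05, adjusted p = 0.0145) and Cxcl12 (−0.18 ± 0.05, adjusted p = 0.038) fell. Vcam1 and Cxcl5 were tested through MT∆Ecad alone, and their averages mostly repeat its changes of 0.83 and −0.63. Il33 and Cxcl12 each include a line with at most 2 reads per group. The 6 calls are therefore no count of effects shared by the 3 lines. Ccl2 (−0.44 ± 0.16, limma, adjusted p = 0.105) was called with the block (adjusted p = 0.00221), in DESeq2 (adjusted p = 0.0316) and without siCtl replicate 2 of MT∆Ecad (limma, adjusted p = 0.0498). Csf1 (−0.08 ± 0.10) was called only with the block (limma, adjusted p = 0.0356). Ccl7 (0.05 ± 0.13) and Cxcl1 (−0.08 ± 0.17) were not called by limma with or without it.

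The averages need care where a line lacks the gene. Il33, Vcam1 and Cxcl12 lost their average call in 10, 11 and 11 of the 12 fits that left out a library, with adjusted p up to 0.111, 0.108 and 0.119 (limma). Of the 6 other alternatives, 2 called each of these genes and 3 called Cxcl5, while Tnfaip2 kept its average call in all 6 and lost it without 2 of the 12 libraries (adjusted p up to 0.0511, limma). In edgeR Cxcl12 turned to 0.59 and in DESeq2 to 0.30, with 1 read in the 4 libraries of PyMT-1099 LT. Averaged over Py2T LT and MT∆Ecad alone, an alternative chosen after the data were seen, Cxcl12 changed by −0.28 ± 0.06 (limma, adjusted p = 0.0208), and Ccl7 over PyMT-1099 LT and MT∆Ecad by 0.13 ± 0.16 (adjusted p = 0.649). These averages called 9.20% and 16.3% of all genes.

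Of 13 receptor genes of these ligands, 5 reached 1 CPM in PyMT-1099 LT and 6 in each other line, while most chemokine receptors were silent. Ccr2, Ccr3 and Ackr1 had 0 reads in all 12 libraries, as had Itga4, the integrin chain that pairs with Itgb1 or Itgb7 to bind Vcam1. Itgb1 itself stood at 1119 to 2271 CPM. Ccr1 stayed at or below 0.284 CPM, Cxcr2 at or below 0.297 and Cxcr4 at or below 0.0872. So Ccl2, Ccl7, Cxcl1, Cxcl5 and Cxcl12 were transcribed with no more than traces of their main signalling receptors. Ackr3, the scavenger of Cxcl12, was the exception among these chemokine receptors. It stood at 176 and 149 CPM in Py2T LT siCtl libraries, against 8.32 and 6.68 in those of PyMT-1099 LT and 1.88 and 2.69 in those of MT∆Ecad. With siNrf2 it rose in MT∆Ecad to 9.74 and 14.1 CPM, a change of 1.96 ± 0.20 (SE; limma, adjusted p = 0.000564), while Cxcl12 itself was not called there.

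Il33 and its receptor were unevenly placed. Il1rl1, the binding chain, stood at 153 and 155 CPM in the PyMT-1099 LT siCtl libraries, 9.99 and 9.12 in Py2T LT and 3.73 and 5.17 in MT∆Ecad. Il1rap, the shared signalling chain, showed the reverse, with 114 and 107 CPM in MT∆Ecad and 78.2 and 111 in Py2T LT, but 0.466 and 0.800 in PyMT-1099 LT. Each line was thus low in Il33, Il1rl1 or Il1rap. Csf1 and Csf1r were both at 13.9 CPM or more in each library of the MMTV-PyMT lines, and Csf1r stayed at or below 2.12 CPM in MT∆Ecad. Itgb7, an integrin chain, fell in MT∆Ecad from 21.5 and 19.9 to 7.95 and 4.68 CPM (−1.61 ± 0.24 SE, limma, adjusted p = 0.00305).

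**Figure D4:**
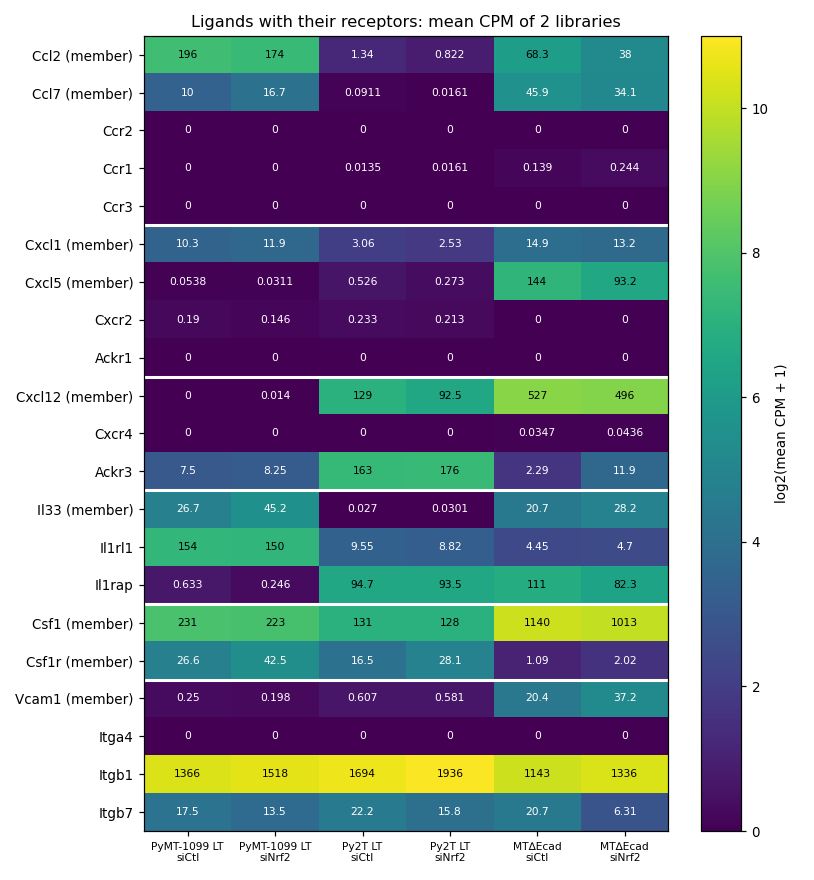
Mean CPM of 2 libraries (printed numbers) for the ligands and adhesion molecule with their receptors, by line and siRNA, coloured by log2(mean CPM + 1), with white lines between ligand families. Ccr2, Ccr3, Ackr1 and Itga4 are 0 throughout, and Ackr3 runs from 2.29 to 11.9 CPM between siCtl and siNrf2 in MT∆Ecad.

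The wider families were taken as lists, and counts are for the limma average beside 5.99% of tested genes higher and 6.26% lower. For the average, edgeR called 3.22% of all genes higher and 3.62% lower, and DESeq2 5.51% and 4.6%. Of 34 chemokine ligands 14 were tested, with 0 higher and 2 lower (Cxcl5 and Cxcl12), and 5 of the 34 are among the 10. Of 22 chemokine receptors 2 were tested and 1, Ackr3, rose (0.73 ± 0.11 SE, limma, adjusted p = 0.00631). Of 28 interleukins, colony-stimulating factors and TNF family genes 18 were tested and 2 rose: Il33 and Il1rn, the antagonist of the interleukin-1 receptor (0.45 ± 0.12, limma, adjusted p = 0.0443). In this list edgeR called 0 genes in the average, and DESeq2 called 2 higher and 0 lower. At an unadjusted p under 0.05 the limma average had 2 chemokine ligands higher and 5 lower, beside 14.3% and 14.4% of all genes, while edgeR called 0 of them and DESeq2 1, which was lower. The lines did not show 1 direction for the chemokine ligands. PyMT-1099 LT had 0 called by limma, edgeR or DESeq2. It had 4 with an unadjusted p under 0.05, all higher (limma, beside 6.37% of all genes higher). The block called 3 there, all higher, beside 631 of 12502 genes higher. Py2T LT had 0 called by limma or edgeR. It had 3 with an unadjusted p under 0.05, all lower (limma, beside 3.84% of all genes lower). DESeq2 called 1 and the block 1, each lower, beside 31 and 84 of 12502 genes lower. MT∆Ecad had 2 higher and 2 lower in limma and in DESeq2, 2 and 0 in edgeR, and 4 and 5 with the block. Over all 12502 genes these counts were 1111 and 1053 in limma and 1016 and 848 in DESeq2. They were 920 and 680 in edgeR and 2676 and 2648 with the block.

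Cytokine receptors called by limma were all higher. Of 23 in the list 19 were tested, and 7 were higher and 0 lower in the average, with a median of 0.15 against −0.01 over all genes. In MT∆Ecad 9 were higher and 0 lower (limma, beside 8.89% and 8.42% of all genes), with a median of 0.40 against 0.00 over all genes. Among those lower, 0 in the average and 1 in MT∆Ecad had an unadjusted p under 0.05 (limma, beside 14.4% and 15.3% of all genes). In the average edgeR called 7 higher and 0 lower, and DESeq2 8 higher and 1 lower. Beside Csf1r they included Csf2rb (0.76 ± 0.06 SE, limma, adjusted p = 0.00051) and Csf2rb2 (0.55 ± 0.11, adjusted p = 0.0173), chains of receptors for Csf2, Il3 and Il5. Csf2rb went from 2.63 ± 0.123 to 13.0 ± 0.735 CPM in MT∆Ecad and was below 1 CPM in the other lines. It was tested through MT∆Ecad alone, so its average mostly repeats the change of that line. Il6ra, the interleukin-6 receptor, rose by 0.60 ± 0.07 (limma, adjusted p = 0.00231), from 57.5 ± 3.88 to 118 ± 3.44 CPM in MT∆Ecad. Csf2rb and Csf2rb2 are near-identical copies whose reads could have been split.

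Of 20 leukocyte adhesion ligands and integrins 11 were tested, with 3 higher and 3 lower in the average in limma, 0 and 3 in edgeR and 1 and 3 in DESeq2. Jam2, a junctional adhesion molecule, rose by 0.32 ± 0.06 beside Vcam1 (limma, adjusted p = 0.0131). Itgb7 (−0.81 ± 0.14, limma, adjusted p = 0.00879), Mcam (−0.70 ± 0.13, adjusted p = 0.0112) and Itgb2 (−0.58 ± 0.09, adjusted p = 0.00619) fell. All 30 NF-kB subunits, kinases and feedback genes were tested, and 1 was higher and 2 lower. Ikbke, an inducible kinase of the pathway, rose by 0.25 ± 0.06 (limma, adjusted p = 0.0337), while Ikbkg, the scaffold of the main kinase complex, changed by −0.38 ± 0.08 (adjusted p = 0.0241) beside Tnfaip2. The median of this list was 0.03, against −0.01 over all genes. With the block, beside 40.0% of all genes, the average had 4 higher and 5 lower chemokine ligands, 2 and 0 chemokine receptors, 6 and 3 interleukins and related factors, 11 and 1 cytokine receptors, 6 and 3 adhesion genes, and 6 and 6 NF-kB genes.

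Across the 12 libraries, the levels of these genes followed the lines, so correlations are only descriptions of 3 clusters. Cxcl12 and Tnfaip2 had r = 0.992, Cxcl5 and Vcam1 0.984, and Cxcl5 and Csf1r −0.979, on log2(CPM + 1). Among all tested genes the nearest patterns were those of Ugt1a6a for Ccl2 (r = 0.996), Prrg1 for Ccl7 (0.993), Fam171a1 for Cxcl1 (0.978), Podxl for Cxcl5 (0.999) and Serpinh1 for Cxcl12 (0.999). For Il33 it was Trpm6 (0.996), for Vcam1 Sync (0.998), for Csf1 Gpr137b (0.991), for Csf1r Hsd11b1 (0.992) and for Tnfaip2 Gm2115 (0.998). Points of a line share its cells and the table shares 1 processing, so these values carry no test.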

How the data were processed

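RNA of 12 cultures was sequenced from ribosome-depleted stranded libraries as single reads of 81 nt, per the labels' protocols. STAR and mm10 are named in the submitters' processing notes. The counting tool, the annotation and the strand setting are not given in the sources used here. The authors deposited CPM per Entrez gene; 24374 of 24454 IDs were matched to symbols of RefSeq GRCm38.p6, and 80 were not. Whole reads were recovered from the CPM steps (100% of values within 0.01 of a whole read), and the library totals set the precision.

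Genes with at least 1 CPM in at least 2 libraries (12502) were tested with limma 3.58.1 (R 4.3.3) on log2(CPM + 1), with 6 group means, a trended empirical Bayes variance and Benjamini-Hochberg adjustment over all tested genes, two-sided. The 6 groups share 1 variance per gene, as 2 libraries are too few for a spread of their own. A line near 0 CPM thus enters the SE of the other lines. Each p-value reflects only how these samples spread. Alternatives were a pseudocount of 0.1, no filter, TMM scaling, edgeR 4.0.16 and DESeq2 1.42.0 on the recovered reads, a replicate block, and leaving out each of 12 libraries. The code was tested on simulated data.

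Replicate numbers are shared by siCtl and siNrf2, without a label that explains them. Deviations of same-numbered libraries correlated across genes within each line (r = 0.778, 0.846 and 0.625), so the numbers were taken to pair them, and blocked values stand beside the results they change. Ratios of reads carry 95% counting intervals, and 0 reads is taken to allow 3, counting error only. Replicates differed by more than sampling noise.

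The 10 genes, the lists and the heptamers were chosen with earlier results of these data known. The text names all 10 genes, the targeted gene, the receptors, up to 4 called genes with the largest average change of each list, and the gene nearest in pattern to each of the 10. Markers and Hmgxb3 are also named, the latter chosen after its overlap was seen.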

Additional observations from a re-analysis of the deposited data

Results flagged for a closer look

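An F test in limma for a siNrf2 effect that differs between lines called 4 of the genes named here. Over all 12502 tested genes it called 2.18%. Csf2rb and Jam2 were named for a large called average change, so the count of 4 carries no weight as a result. Vcam1 (adjusted p = 0.0346), Ackr3 (adjusted p = 0.0162), Csf2rb (adjusted p = 0.00146) and Jam2 (adjusted p = 0.0408) all had their largest change in MT∆Ecad, the line in which siNrf2 moved most genes. For Vcam1 and Csf2rb the other lines lie under 1 CPM, and both were tested through MT∆Ecad alone, so their differences carry no weight as results. In edgeR the adjusted p was 0.0473 for Ackr3, 0.123 for Csf2rb, 0.207 for Jam2 and 0.349 for Vcam1. In DESeq2 it was 4.62e-09, 0.00468, 0.28 and 0.328 in the same order. For Ackr3 the change was 1.96 there, against 0.11 for Py2T LT and 0.13 for PyMT-1099 LT. For the lines in that order the changes were 1.95, 0.08 and 0.24 for Csf2rb and 0.70, 0.41 and −0.16 for Jam2.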

How the results depend on the processing

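Counts are of the 10 genes called. With the replicate block, higher and lower calls came to 3 and 1 in PyMT-1099 LT and to 1 and 1 in Py2T LT. They were 2 and 5 in MT∆Ecad and 3 and 5 in the average, and 5 genes differed between lines. Over all 12502 tested genes the block called 631 and 494 in PyMT-1099 LT and 43 and 84 in Py2T LT. In MT∆Ecad it called 2676 and 2648, in the average 2370 and 2627, and between lines 2377. DESeq2 gave 1 lower gene in Py2T LT. In MT∆Ecad 2 genes were higher with a pseudocount of 0.1, edgeR or DESeq2, and lower genes numbered 1 with that pseudocount or TMM scaling and 0 with edgeR. Over all 12502 tested genes, higher and lower calls there were 940 and 975 with that pseudocount and 1126 and 812 with TMM scaling. They were 920 and 680 in edgeR and 1016 and 848 in DESeq2. The average kept 1 higher gene with that pseudocount, no filter, edgeR or DESeq2, and 1 lower with that pseudocount or edgeR. All genes higher and lower in it were 552 and 690 with that pseudocount, and 643 and 687 of 18265 with no filter. They were 403 and 453 in edgeR and 689 and 575 in DESeq2. Genes that differed between lines numbered 0 with that pseudocount, no filter, edgeR or DESeq2. Over all genes these settings called 58, 311, 20 and 281 in the same order. Fits that left out a library keep 1 library in a group, and their counts of calls are not given.

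The Ccl7 average changed sign with a pseudocount of 0.1 (−0.14), edgeR (−0.66) and DESeq2 (−0.74), and the Cxcl12 average in edgeR (0.59) and DESeq2 (0.30). Without 1 library the Ccl7 average ran from −0.055 to 0.16 and the Cxcl1 average from −0.25 to 0.10. In MT∆Ecad Cxcl1 ran from −0.76 to 0.28 and Csf1 from −0.36 to 0.027, Vcam1 from −0.18 to 0.12 and Csf1 from −0.18 to 0.11 in Py2T LT. The cause was not tested. A group left with 1 library was taken to vary like the others. The block changed no other call of the 10 genes in a line or in the average beside those given with its value. Same-numbered libraries deviated together between PyMT-1099 LT and Py2T LT (r from 0.56 to 0.79) but not between MT∆Ecad and either (r from −0.41 to −0.02). A block by number shared by all lines left 8, 10 and 10 genes called in the siCtl comparisons, as without it. Over all 12502 tested genes it called 7808, 7434 and 7625 in the same order. Depth limits genes under 1 CPM: Ccl7, Cxcl5, Il33 and Vcam1 in 1 or 2 lines, Cxcl12 in PyMT-1099 LT and Ccl2 in Py2T LT with siNrf2.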
